A study of Mus musculus with 6 samples.

Results

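Integrin chains, laminin chains and 5 further basement membrane genes were followed in cultured neural stem cells by bulk RNA sequencing. The genes were taken by symbol: 17 integrin alpha chains, 8 integrin beta chains, 11 laminin chains, the nidogens Nid1 and Nid2, perlecan (Hspg2), agrin (Agrn) and dystroglycan (Dag1), which makes 41 of the 17006 genes listed in the 6 libraries. Cells came from the subventricular zone, the germinal layer beside the lateral ventricles of the brain, of C57BL/6 mice that were young (2 months, 3 libraries) or aged (15-18 months, 3 libraries). The tissue dissociated for a culture was pooled from 5 mice, and RNA was extracted from cells grown in proliferation medium. No genotype or treatment separates the groups, and the labels do not say whether the libraries of a group came from separate cultures, so the p-values measure the spread between these libraries, which may be technical. Cells in culture lack the vessels and basement membranes of the tissue, so the values describe the transcripts that these cells make in the medium.

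Levels are given in FPKM, fragments counted for a gene after adjustment for transcript length and library size, so that levels of different genes can be compared. Low values came in steps of 1 read, from which the libraries were estimated to hold 5250000 to 5430000 counted reads each. All 14 markers of neural stem and progenitor cells that were examined were present, with sums of 7115 to 7305 FPKM in young libraries and 7154 to 7302 in aged ones. In bulk RNA, fewer cells of a type and less RNA per cell cannot be told apart.

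Integrins are cell surface receptors made of an alpha and a beta chain, and the pair decides which matrix protein is bound. Laminins are secreted trimers of an alpha, a beta and a gamma chain that assemble into the sheet of a basement membrane, where nidogens, perlecan and agrin join them, and dystroglycan is a further laminin receptor. In the subventricular zone, stem cells touch laminin-rich basement membranes around vessels and in the branched structures called fractones, and the laminin receptor formed by integrin alpha 6 and beta 1 is known for holding them there.

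Of the 41 genes, 19 reached a mean of 1 FPKM over the 6 libraries and were tested (6 integrin alpha chains, 3 beta chains, 6 laminin chains and 4 of the other 5). Among these the integrin beta 1 transcript was the most abundant, followed by dystroglycan and agrin. Itgb1 stood at the percentile 96.4 of all tested genes by level, Dag1 at 94.0 and Agrn at 87.7. The pattern of chains was selective, with 1 or a few members of each class holding most of the summed FPKM. Itga6 and Itgav, the laminin and the vitronectin-type alpha chains, made up 34.2% ± 0.498 and 33.7% ± 0.191 (SD, n = 3) of the summed alpha chain FPKM in young libraries, and Itga7, also a laminin receptor chain, 17.5% ± 0.520. Itgb1 made up 72.2% ± 0.703 of beta chain FPKM, Itgb8 16.9% ± 1.08 and Itgb5 10.7% ± 0.560. Lama5 gave 81.3% ± 0.510 of laminin alpha FPKM and Lamc1 99.9% ± 0.115 of laminin gamma FPKM, while Lamb1 (53.1% ± 2.27) and Lamb2 (46.1% ± 2.02) had similar shares of laminin beta FPKM in young libraries.

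**Figure D1:**
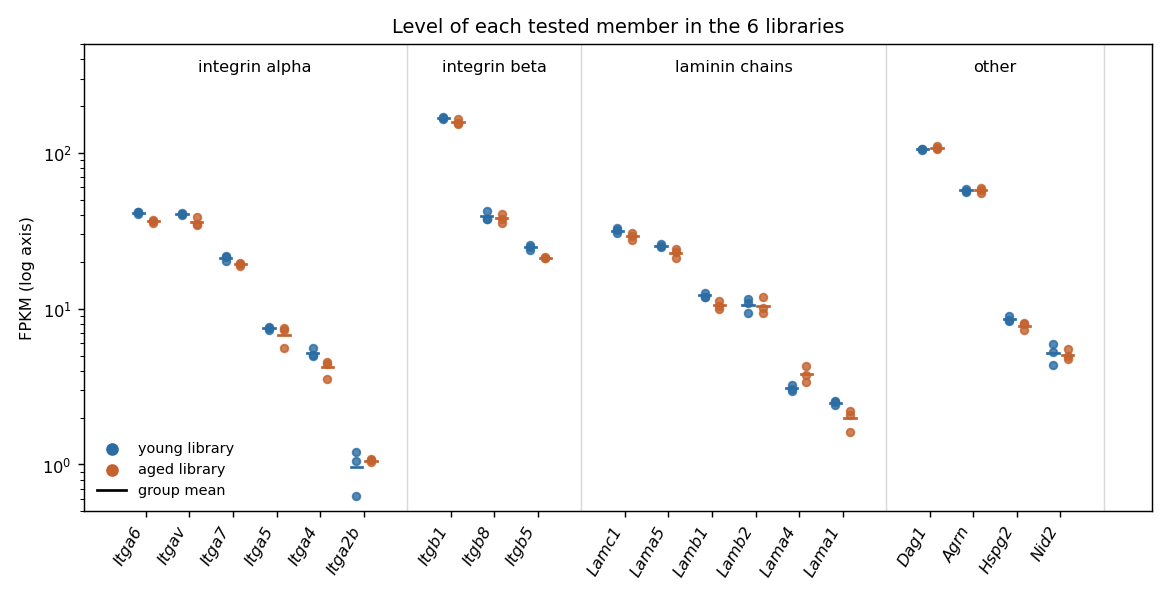
FPKM (log axis) of the 19 tested genes in each young (blue) and aged (orange) library, with a line at each group mean, ordered by level within integrin alpha, integrin beta, laminin and other genes. Itgb1 lies above 150 FPKM in all 6 libraries, and the groups are separate for Itga6 and Itgb5 but mixed for Itgb8, Agrn and Lamb2.

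The question of the design is how stem cells of aged mice differ from those of young mice, and for these genes the differences were small and mostly in 1 direction. By limma on log2(FPKM + 1), 0 of the 19 tested genes passed an adjusted p of 0.05, where 0.722% of the 11912 tested genes did (86 genes, 0.327% higher and 0.395% lower). At an unadjusted p under 0.05, 7 of the 19 were lower in aged libraries (Itga6, Itgb5, Itgav, Lamb1, Lama5, Itga4 and Itga7), against 5.55% of tested genes, and 0 were higher, against 6.3%. In 11 of the 19, every aged library lay below every young one, against 8.58% of tested genes, and in 1, Lama4, every aged library lay above, against 8.98%. The estimate was below 0 for 16 of the 19, against 49% of tested genes. The median log2 change was -0.12, beside 0.003 for all tested genes, and it was -0.079 without aged 1. These genes were chosen as a group with earlier results known, so the counts describe them and no p is given for the group.

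**Figure D2:**
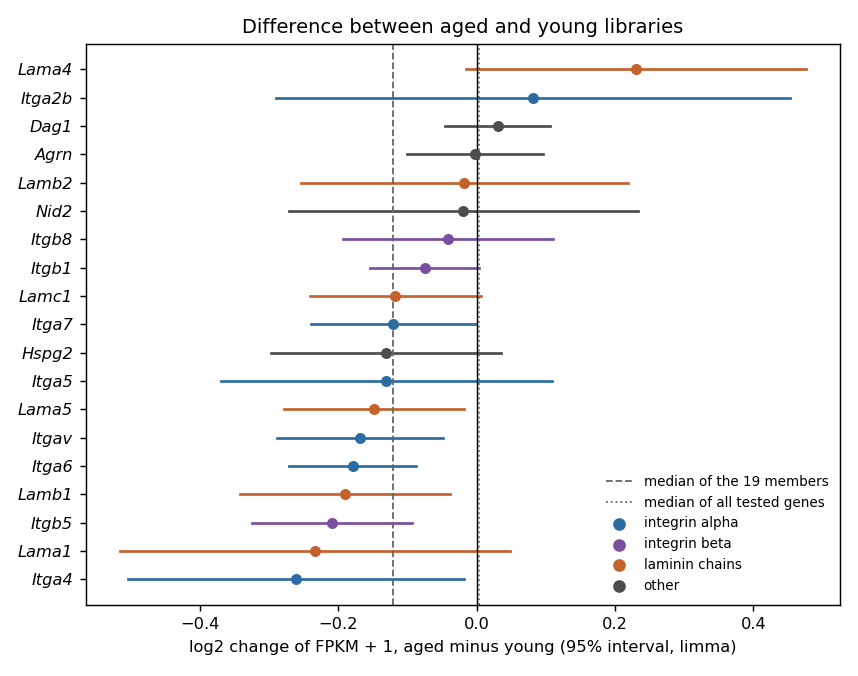
Log2 change of FPKM + 1 (aged minus young) of the 19 tested genes with its 95% interval from limma, with the median of the 19 (dashed) and of all tested genes (dotted). The intervals of Itga6 and Itgb5 end at -0.09, and those of 12 genes include 0.

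Of the integrin alpha chains, Itga6 had the smallest p. Itga6 (gene 16403, mm10 chromosome 2, 71786886 to 71858427) encodes the alpha chain that binds laminin with beta 1. It was at 41.6, 40.6 and 41.7 FPKM in young 1 to 3 and at 35.7, 36.6 and 36.8 FPKM in aged 1 to 3. All aged libraries lay below all young ones, by more than the spread within either group. The means were 41.3 ± 0.601 and 36.4 ± 0.610 FPKM (SD, n = 3 each), a ratio of 0.880, from about 965 and 826 estimated reads. On the log2 scale the aged libraries differed by -0.18 ± 0.04 (SE; limma adjusted p = 0.109, unadjusted p = 0.00181). Sampling of the estimated reads alone would give an SE of 0.039. A gene-level value does not separate the splice forms of the cytoplasmic tail of Itga6 or of Itga7.

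Itgav (gene 16410, chromosome 2, 83722303 to 83806917) encodes the alpha chain of receptors for vitronectin, fibronectin and latent TGF-beta. Young 1 to 3 were at 41.2, 40.5 and 40.1 FPKM and aged 1 to 3 at 35.2, 38.7 and 34.3 FPKM. The groups did not overlap, although aged 2 came within 1.4 FPKM of young 3. The log2 difference was -0.17 ± 0.05 (SE; limma adjusted p = 0.247). Itga7 (gene 16404, chromosome 10, 128933421 to 128958286), a second laminin receptor chain best known from muscle, was at 21.8, 21.4 and 20.3 FPKM in young and 19.8, 19.5 and 18.9 FPKM in aged libraries. The values again did not overlap, but the gap between young 3 and aged 1 was smaller than the range within either group (limma adjusted p = 0.420).

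Itga4 (gene 16401, chromosome 2, 79255426 to 79333114), a chain of receptors for VCAM1 and fibronectin, was less abundant. It was at 4.94, 5.06 and 5.63 FPKM in young and at 4.44, 3.56 and 4.58 FPKM in aged libraries, about 276 and 216 estimated reads. Aged 2 was far below the other aged libraries, and the log2 difference was -0.26 ± 0.11 (SE; limma adjusted p = 0.382), and -0.17 without aged 2. The fibronectin receptor chain Itga5 ranged from 7.28 to 7.65 FPKM in young and from 5.59 to 7.47 FPKM in aged libraries, where only aged 1 was outside the young range (limma adjusted p = 0.703). Itga2b, the platelet integrin chain, was barely over the limit for testing, at 0.63 to 1.21 FPKM in young libraries and 1.03 to 1.08 in aged ones, or about 18 estimated reads per young library. Of 6 markers of megakaryocytes and platelets, 5 were measured, and their sum was 0.66 to 2.66 FPKM in young libraries and 1.6 to 2.66 in aged ones.

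The main alpha chains were lower by similar factors, and their shares of the alpha chain sum were close in both ages. The 17 alpha chains summed to 122.1, 120.04 and 119.9 FPKM in young and 104.7, 110.4 and 106.9 FPKM in aged libraries. The shares of Itga6 (33.9% ± 0.663), Itgav (33.6% ± 1.47) and Itga7 (18.05% ± 0.724, SD, n = 3) of that sum in aged libraries differed from those in young libraries by at most 0.527 percentage points. The beta chains summed to 233.1, 231.8 and 228.7 FPKM in young and 216.02, 227.4 and 211.4 FPKM in aged libraries. The alpha sum as a percentage of the beta sum was 52.4, 51.8 and 52.4 in young and 48.5, 48.5 and 50.6 in aged libraries, which did not overlap.

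**Figure D3:**
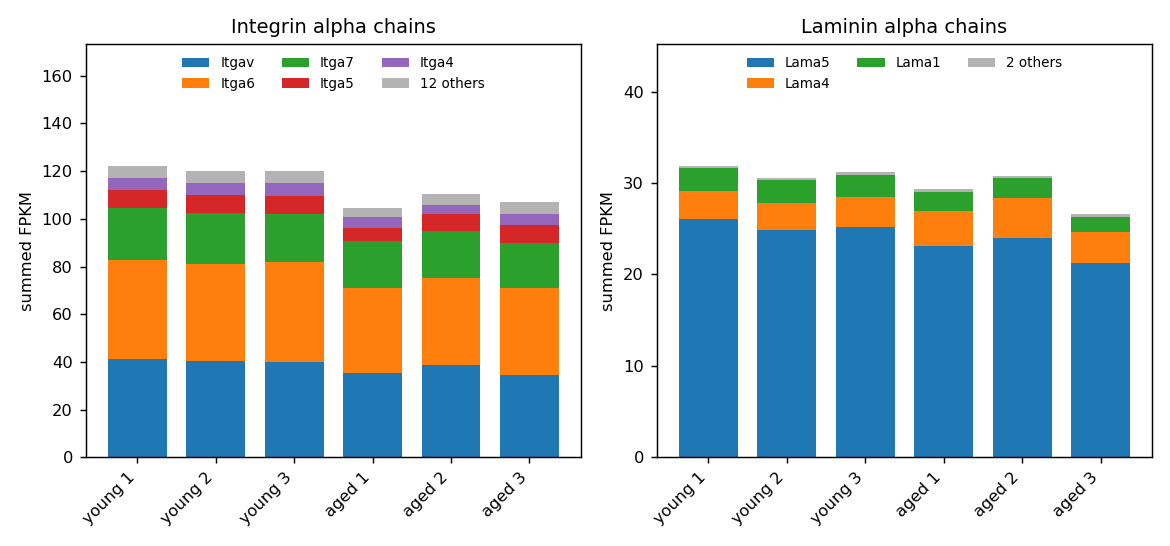
Summed FPKM per library of the integrin alpha chains (left, 17 genes) and the laminin alpha chains (right, 5 genes), stacked by chain from 0. The integrin sums of aged libraries lie below all young ones with the chains in nearly the same proportions, and Lama4 takes a larger part of the laminin alpha sum in aged libraries (13.1% against 9.88%).

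Itgb1 (gene 16412, chromosome 8, 128685654 to 128733579) encodes the beta chain that most alpha chains pair with. It was at 166.7, 169.02 and 165.1 FPKM in young and 156.1, 165.01 and 154.3 FPKM in aged libraries. Aged 2 lay 0.09 FPKM under the lowest young library, so the groups only just failed to overlap. The log2 difference was -0.08 ± 0.03 (SE; limma adjusted p = 0.446). Itgb5 (gene 16419, chromosome 16, 33829665 to 33949338), which pairs with Itgav in a vitronectin receptor, was at 23.7, 24.7 and 25.8 FPKM in young and 21.4, 21.3 and 21.01 FPKM in aged libraries. All aged libraries were lower and close to each other, and the means of 24.7 ± 1.05 and 21.2 ± 0.180 FPKM (SD, n = 3 each) gave a ratio of 0.859. The log2 difference was -0.21 ± 0.05 (SE; limma adjusted p = 0.140, unadjusted p = 0.00286). Sampling of the about 424 and 354 estimated reads alone would give an SE of 0.060, larger than limma's 0.051. The p of Itgb5 thus rests on a spread below that of read sampling. Itgb8 (gene 320910, chromosome 12, 119162803 to 119238276), the Itgav partner known for releasing active TGF-beta in the brain, overlapped between the ages. It was at 42.4, 37.8 and 37.4 FPKM in young and 37.7, 40.8 and 35.7 FPKM in aged libraries, and the 95% interval of its log2 change ran from -0.19 to 0.11. The difference between the beta chains was not tested.

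The 200 bases before the annotated starts of Itgb1 and Itgb5 are shown as the most abundant beta chain and the beta chain with the lowest estimate, with the leukocyte chain Itgam for contrast, from RefSeq (GRCm38.p6, plus strand, 5′ to 3′). They lie at chr8:128685454-128685653, chr16:33829465-33829664 and chr7:128062440-128062639, and capitals mark GGGCGG or its reverse complement CCGCCC, the core of the GC box.
Itgb1: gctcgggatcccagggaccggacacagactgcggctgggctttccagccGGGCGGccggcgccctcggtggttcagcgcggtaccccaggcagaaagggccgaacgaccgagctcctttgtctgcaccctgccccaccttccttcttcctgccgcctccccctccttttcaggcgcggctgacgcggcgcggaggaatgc
Itgb5: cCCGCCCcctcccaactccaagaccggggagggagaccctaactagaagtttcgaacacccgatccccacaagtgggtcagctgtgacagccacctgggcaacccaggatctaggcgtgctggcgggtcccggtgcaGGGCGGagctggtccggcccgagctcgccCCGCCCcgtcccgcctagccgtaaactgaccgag
Itgam: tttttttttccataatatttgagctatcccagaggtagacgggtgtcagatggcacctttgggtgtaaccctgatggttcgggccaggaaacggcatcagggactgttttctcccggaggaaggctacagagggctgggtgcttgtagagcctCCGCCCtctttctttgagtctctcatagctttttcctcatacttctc
The Itgb1 region holds 20 CpG and 1 GC box, the Itgb5 region 16 CpG and 3 GC boxes and the Itgam region 5 CpG and 1 GC box. A start region was found for 26 of the 41 genes (the first start listed per gene). In the 200 bases before it, a GC box was present in 9 of the 13 tested genes and 3 of the 13 genes with lower means, beside 31.3% of 27025 genes. The observed to expected CpG ratio had a median of 0.585 in the tested genes, 0.482 in the others and 0.391 in all genes, and it was above that last value in 10 of 13 and 9 of 13. Itga3 and Itgb6 had ratios of 0.928 and 0.751 at mean levels of 0.182 and 0.00667 FPKM, so a CpG-rich start came with hardly any transcript in these cells. A match is a description of letters, and binding was not measured.

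**Figure D4:**
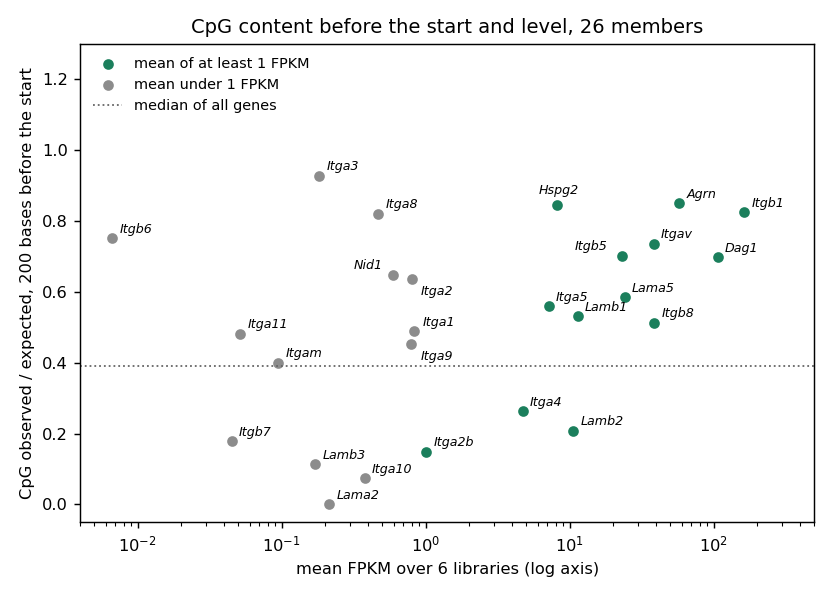
Observed to expected CpG ratio in the 200 bases before the start against the mean FPKM over 6 libraries (log axis) for the 26 genes with a start region, in green at 1 FPKM or more and in grey below, with the median of all genes (dotted). Genes of the highest levels (Itgb1, Dag1, Agrn) have ratios of 0.698 to 0.850, and genes of low level spread from 0 to 0.928.

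Among laminins, the alpha 5, beta 1 and gamma 1 chains were lower in every aged library without passing the test, the beta 2 chain overlapped between the ages, and the alpha 4 chain was higher without passing the test. Lama5 (gene 16776, chromosome 2, 180176373 to 180225904), the alpha chain of mature basement membranes, was at 26.1, 24.9 and 25.2 FPKM in young and 23.2, 24.03 and 21.3 FPKM in aged libraries. The groups did not overlap, and the means were 25.4 ± 0.620 and 22.8 ± 1.39 FPKM (SD, n = 3 each; log2 change -0.15 ± 0.06 (SE), limma adjusted p = 0.350). Lamb1 (gene 16777, chromosome 12, 31265146 to 31329644) was at 11.9, 11.9 and 12.7 FPKM in young and 11.2, 10.5 and 9.99 FPKM in aged libraries. All aged libraries were lower, and the log2 difference was -0.19 ± 0.07 (SE; limma adjusted p = 0.298). Lamc1 (gene 226519, chromosome 1, 153218922 to 153332786), the gamma chain of most laminins, was at 32.8, 31.8 and 30.5 FPKM in young and 27.5, 29.5 and 30.4 FPKM in aged libraries. Aged 3 came within 0.01 FPKM of young 3 (limma adjusted p = 0.445). Lama1, the early embryonic alpha chain, was at 2.40 to 2.55 FPKM in young libraries and 1.61 to 2.22 in aged ones, with aged 3 the lowest (limma adjusted p = 0.521). Lamb2, the beta chain of vascular and synaptic laminins, overlapped between the ages at 9.37 to 11.6 and 9.39 to 11.95 FPKM.

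Lama4 (gene 16775, chromosome 10, 38965515 to 39110188), the alpha chain typical of vessel walls, was singled out after its values were seen, because it was the only tested gene of the 41 with all aged libraries above all young ones. It was at 3.04, 2.95 and 3.26 FPKM in young and 3.75, 4.30 and 3.36 FPKM in aged libraries, about 101 and 121 estimated reads. Aged 3 lay just above young 3. The log2 difference was 0.23 ± 0.11 (SE; limma adjusted p = 0.450), and read sampling alone would give an SE of 0.11. Its share of laminin alpha FPKM was 9.55, 9.64 and 10.4% in young and 12.8, 14.0 and 12.6% in aged libraries, which did not overlap, while that of Lama5 went from 81.3% ± 0.510 to 79.05% ± 1.09 (SD, n = 3 each).

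Endothelial cells and fibroblasts also make laminins, and their markers were measured beside these genes. Of 12 endothelial markers 11 were measured, with sums of 3.43 to 4.69 FPKM in young libraries and 3.76 to 4.08 in aged ones. The junction gene Pecam1 was at 0.06 to 0.17 and 0 to 0.06 FPKM. Cldn5 was at 0 to 0.39 FPKM in young libraries and listed at 0 in all aged ones, which overlapped. The endothelial Egfl7 had 1.25 to 1.72 FPKM in young libraries and 2.42 to 2.71 in aged ones, and Flt1 0.72 to 1.21 and 0.26 to 0.59 FPKM, so these separated in opposite directions. Egfl7 did so on about 11 and 18 estimated reads per library (limma adjusted p = 0.147). Its limma SE was 0.12, where read sampling alone would give 0.32. Flt1 was under the limit for testing. Of 11 fibroblast and meningeal markers 8 were measured, with sums of 18.8 to 20.7 FPKM in young libraries and 20.2 to 21.1 in aged ones. Most of that sum was Fbln1, at 12.3 to 13.6 FPKM when young and 10.8 to 11.5 when aged, without overlap (limma adjusted p = 0.223). Col1a1 was higher by limma (0.31 to 0.54 against 2.04 to 2.81 FPKM, adjusted p = 0.0107). It reached the mean of 1 FPKM needed for testing only through the aged libraries, with about 14 estimated reads per young library. Col1a2, under that limit and not tested, was at 0 to 0.04 and 0.54 to 0.75 FPKM. Dcn was at 0 to 0.1 FPKM in young libraries and listed at 0 in all aged ones. Pdgfra, also a gene of oligodendrocyte progenitors, was at 1.48 to 1.59 and 1.96 to 2.62 FPKM (limma adjusted p = 0.309), and Col3a1 at 0 to 0.06 and 0.1 to 0.16 FPKM, both without overlap. Of 12 mural cell markers 9 were measured, with sums of 20.8 to 22.3 and 18.8 to 21.3 FPKM, of which Notch3 alone held 14.5 to 15.96 FPKM and Pdgfrb 0 to 0.03 FPKM. The part of these cells in the laminin values was not tested.

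Among dystroglycan and the linkers of the basement membrane, Dag1, Agrn and Nid2 overlapped between the ages, and Hspg2 was lower in every aged library without passing the test. Dag1 (gene 13138, chromosome 9, 108204861 to 108263977) was at 106.2, 105.8 and 104.3 FPKM in young and 106.9, 110.6 and 105.6 FPKM in aged libraries. The groups overlapped, and the 95% interval of the log2 change ran from -0.05 to 0.11 (limma adjusted p = 0.795). Agrn (gene 11603, chromosome 4, 156165290 to 156197533), a heparan sulfate proteoglycan that links laminin to dystroglycan, was at 57.1, 59.04 and 56.4 FPKM in young and 54.99, 59.4 and 57.98 FPKM in aged libraries. Its groups overlapped too, with an interval from -0.10 to 0.10. Hspg2 (gene 15530, chromosome 4, 137468751 to 137570630), which encodes perlecan, was at 8.96, 8.29 and 8.50 FPKM in young and 7.96, 8.05 and 7.26 FPKM in aged libraries. All aged values were lower, and the log2 difference was -0.13 ± 0.07 (SE; limma adjusted p = 0.551). Nid2, a bridge between laminin and collagen IV, overlapped at 4.38 to 5.91 and 4.78 to 5.49 FPKM. Nid1, its relative, was under the limit for testing, at 0.66 FPKM in every young and 0.49 to 0.58 FPKM in aged libraries without overlap, or about 22 and 17 estimated reads.

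The libraries of a group also differed among themselves. Aged 1 lay below the young mean in 16 of the 19 genes, aged 2 in 12 and aged 3 in 14, while young 1 to 3 lay below it in 7, 9 and 13. By this count aged 2 did not stand apart from young 3. Aged 3 held the lowest value of the 6 libraries in 9 genes and aged 1 in 4. Aged 2 was the least distant, with a median log2 difference from the young mean of -0.07 over the 19 genes, against -0.10 for aged 1 and -0.15 for aged 3, and it held the highest value of all libraries in 4 genes. With any 1 library left out, 5 to 6 genes were lower at an unadjusted p under 0.05. The share of all tested genes in those fits was not counted, so these counts have no background beside them.

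**Figure D5:**
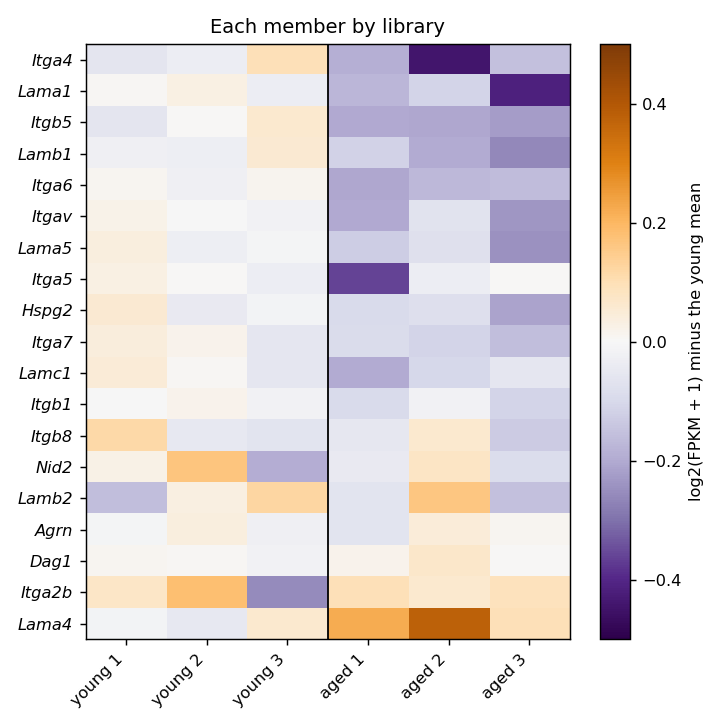
Log2(FPKM + 1) of each tested gene minus its mean in young libraries, for the 6 libraries (columns) and the 19 genes (rows, lowest estimate at the top), in purple below and orange above the young mean. Itgb5, Itga6 and Lamb1 are below it in all 3 aged libraries, and Lama4 is above it in all 3.

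The other 22 genes had means under 1 FPKM and were not tested. Among them were 11 integrin alpha chains, 5 beta chains, 5 laminin chains and Nid1, and 10 of the 22 had a mean under 0.1 FPKM. The collagen receptor chains Itga1 and Itga2 were at 0.65 to 0.96 and 0.55 to 1.07 FPKM, and the tenascin receptor chain Itga9 at 0.50 to 1.05 FPKM, about 16 to 53 estimated reads per group mean for these 3 genes. The chains of leukocyte integrins (Itgal, Itgam, Itgad, Itgae, Itgb2 and Itgb7) stayed between 0 and 0.26 FPKM, beside Ptprc, the common leukocyte marker, at 0 to 0.04 FPKM. Of 14 markers of microglia and leukocytes 5 were measured, with sums of 2.88 to 4.19 FPKM in young libraries and 3.35 to 3.92 in aged ones. The epithelial laminin chains Lama3 and Lamb3 stayed between 0.02 and 0.27 FPKM, and Itgb4, the hemidesmosome chain that pairs with Itga6, between 0 and 0.12 FPKM. Itgb3, the platelet and endothelial partner of Itgav, was at 0.09 to 0.19 FPKM in young libraries and 0.21 to 0.32 in aged ones, without overlap but on about 4 and 7.7 estimated reads.

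Genes that act with integrins were described by count, and the counts at an unadjusted p under 0.05 in these lists stand beside 6.3% higher and 5.55% lower of all tested genes. Of 31 tested adaptor and signalling genes of focal adhesions, 0 passed limma, with 1 higher and 4 lower at an unadjusted p under 0.05 (median log2 change -0.01, against 0.003 for all tested genes, and 0.01 without aged 1). The lower ones included Zyx, a stress fibre protein (56.9 ± 3.65 and 48.8 ± 2.50 FPKM), and the scaffold Pxn (41.1 ± 1.07 and 36.5 ± 1.36 FPKM, SD, n = 3 each). The integrin activator Tln1 (33.9 and 31.5 FPKM) and its partner Vcl (14.5 and 13.1 FPKM), named after their values were seen, were the remaining lower ones, and the kinase Src was higher (43.8 and 47.6 FPKM). By limma, the adjusted p lay between 0.173 and 0.396 for these 5 genes. Of 15 tested matrix ligands outside the laminins, 1 fell, the tenascin Tnc, from 305.2 ± 2.49 to 245.9 ± 6.09 FPKM (limma adjusted p = 0.00397, and 0.0809 without limma's trend). At an unadjusted p under 0.05, 1 ligand was lower, Tnc, and 1 was higher, Mfge8. Mfge8, a ligand of alpha v integrins, was at 91.7 and 102.5 FPKM (limma adjusted p = 0.318), and the median of the list was -0.04. That median was 0.026 without young 2, 0.0076 without aged 2 and -0.083 without young 3, so its sign rests on single libraries. Of 16 tested membrane partners and activators, 1 fell, the tetraspanin Cd63, from 472.9 ± 1.15 to 418.3 ± 4.05 FPKM (limma adjusted p = 0.0128). That call was lost without young 1, young 2, young 3 or aged 1 (adjusted p up to 0.0862) and without limma's trend (0.221). At an unadjusted p under 0.05, 4 of the 16 were higher and 1, Cd63, was lower. The higher ones included Bsg (216.5 and 247.7 FPKM, limma adjusted p = 0.0764). Rap1gap, an inhibitor of the integrin-activating GTPase RAP1, was at 36.9 and 43.5 FPKM (limma adjusted p = 0.0832). Cd9 (113.4 and 128.0 FPKM) and Slc3a2 (142.0 and 151.8 FPKM), named after their values were seen, were the remaining higher ones (limma adjusted p = 0.203 and 0.276). The median log2 change of the partners was -0.02 (0.033 without aged 1 and 0.0089 among genes of at least 5 FPKM).

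For dystroglycan partners and the enzymes of its sugar chain, limma called no gene. The counts at an unadjusted p under 0.05 again stand beside 6.3% higher and 5.55% lower of all tested genes. Of 11 tested dystrophin-associated genes, 0 passed limma and 2 were higher and 0 lower at an unadjusted p under 0.05, with 4 of the 11 below 0 and a median log2 change of 0.06 (0.038 without young 1 and 0.032 without aged 2). Of these, the sarcoglycan Sgcb, was at 15.3 ± 1.48 and 17.6 ± 0.142 FPKM (SD, n = 3 each; limma adjusted p = 0.321). Of 18 tested genes of dystroglycan glycosylation, 0 passed and 4 were higher and 0 lower at an unadjusted p under 0.05, with 6 of the 18 below 0 and a median of 0.03 (0.017 without aged 3). Dpm2, of dolichol mannose synthesis, was at 31.3 and 35.7 FPKM, Gmppa at 17.3 and 20.01 FPKM and B4gat1, which primes the laminin-binding sugar, at 31.1 and 33.8 FPKM. B3galnt2, named after its values were seen, was at 4.26 and 5.21 FPKM with groups that overlapped. By limma the adjusted p lay between 0.172 and 0.421 for these 4 genes. For each of the 4, read sampling alone would give a larger SE than limma's (0.063 to 0.12 against 0.048 to 0.11).

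Among 14 tested basement membrane genes outside the 41, 1 fell by limma, the collagen-binding Sparc (99.6 ± 3.11 to 73.0 ± 2.66 FPKM, SD, n = 3 each, adjusted p = 0.00397, and 0.0630 without limma's trend). At an unadjusted p under 0.05, 5 were lower, Sparc among them, and 1 was higher, beside 5.55% and 6.3% of all tested genes. The median log2 change over the 14 was -0.09 (-0.050 without aged 3). The fibulin Fbln2 was at 334.1 and 311.3 FPKM and the netrin Ntn1 at 77.05 and 71.1 FPKM (limma adjusted p = 0.202 and 0.218). Col18a1 (7.49 and 6.04 FPKM), Fbln1 (13.1 and 11.1 FPKM) and the higher Papln (3.89 and 5.18 FPKM) were named after their values were seen (limma adjusted p from 0.223 to 0.342).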

How the data were processed

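From 1 ug of total RNA of cultured neural stem cells, rRNA was removed and a library built with MGI kits, per the labels' protocols. The authors deposited FPKM, 1 value per gene and library, per the file headers. The submitters' processing notes list TopHat, Cuffdiff and mm10 without version or role. Annotation, strand setting and scaling between libraries are not given in the sources used here.

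From these values, log2(FPKM + 1) was tested with limma 3.58.1 in R 4.3.3 for the 11912 genes whose mean reached 1 FPKM (all 6 libraries, eBayes with trend, no covariates, two-sided, Benjamini-Hochberg over all genes tested, threshold 0.05). Such log2 changes understate those of low genes. FPKM are not counts, so no count test was run. Estimated reads come from the read steps and GENCODE transcript lengths, matched by RefSeq transcript identifier and averaged per gene. Of low values of single-transcript genes, 77.8 to 79.8% lay within 0.15 of a whole read, against 30% by chance, and the step was set on these values. Intervals cover the spread between libraries. Coordinates are from RefSeq GRCm38.p6 (mm10) by Entrez identifier. The members and lists were chosen with earlier results of these data known. Named genes were members past the threshold or with an unadjusted p under 0.05, the 3 most abundant of each class, and in each list the called genes and up to 3 with the smallest p; some genes are not reported here. The alternatives covered pseudocount, filter, scaling, limma options, a replicate block, left-out libraries and threshold. Tables and figures were made with matplotlib 3.10.9, numpy 2.4.6 and pandas 2.3.3 in Python 3.11.15.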

Additional observations from a re-analysis of the deposited data

How the results depend on the processing

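In all 17 alternatives, 0 of the tested members passed limma (smallest adjusted p 0.0896, Itga6 among genes of at least 5 FPKM). Members lower at an unadjusted p under 0.05 numbered 5 to 8. Members higher numbered 1 without limma's trend and 0 to 1 with a library left out. The share of all tested genes at that p was counted only in the main fit (5.55% lower and 6.3% higher). With no filter, 25 of 41 members were lower and their median log2 change was -0.028. The median was -0.145 to -0.079 with a library left out. Of the 19 members, 14 kept their direction in every alternative. The exceptions, all with a library left out, were Itgb8 (-0.091 to 0.016), Itga2b (-0.047 to 0.17), Nid2 (-0.12 to 0.065), Lamb2 (-0.11 to 0.050) and Agrn (-0.026 to 0.028). Over all tested genes, 86 calls became 11 without the trend, 22 with the replicate block, 39 to 63 with a library left out and 190 at a threshold of 0.1. The calls among matrix ligands (Tnc) and other basement membrane genes (Sparc) went from 1 to 0 without the trend (adjusted p 0.0809 and 0.0630). The call among membrane partners (Cd63) went to 0 without the trend and with the replicate block (adjusted p 0.221 and 0.101) and to between 0 and 1 with a library left out, and 3 partners passed at a threshold of 0.1. Col1a1 lost its call with the replicate block (adjusted p 0.0643). Deviations of same-numbered young and aged libraries from their group means correlated at 0.008, -0.072 and 0.108 across genes. Differently numbered libraries correlated at -0.109 to 0.111. The same numbers thus did not stand out, but with 3 libraries per group these values cannot decide whether the libraries are paired. The replicate block called 0 members. The cause of the lost calls was not tested. The alternative for count data was not run, since the files hold FPKM. Depth limits the 22 untested members: 19 of 21 with an estimate had a mean under 20 reads.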
